A study of Mus musculus with 2 samples.

Results

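The genes described here are 10 inflammatory activation genes of macrophages, Nos2, Acod1, Il1a, Il1b, Il1rn, Tnf, Nlrp3, Fpr1, Ptgs2 and Arg1. They were picked by symbol, with their measured values in these libraries in view, and all 10 were found among the 32285 genes of the count files. Their levels and ratios are therefore a description, and no test is given for them. Single-nucleus RNA sequencing was performed on frozen epididymal white adipose tissue (WAT), the visceral fat beside the testis, of male C57BL/6N mice that were 8 weeks old at the start. Mice of both groups ate a high-fat diet (HF, 60% fat) for 6 weeks and then for 8 further weeks with intraperitoneal injections 3 times a week. Control mice (HF-PBS) were injected with phosphate-buffered saline. Treated mice (HF-HHT) were injected with homoharringtonine (HHT) at 0.545 mg/kg, dissolved in DMSO and diluted in PBS. HHT, an alkaloid from plum yews, stops ribosomes from making protein and serves as a leukemia drug. Each group gave 1 library, made from the pooled tissue of 3 mice, so mice, handling and treatment cannot be told apart, and no p-value can be given. All intervals below are 95% intervals of counting error only.

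Macrophages that sense microbial products, cytokines or tissue damage switch on a set of genes through transcription factors such as NF-kB. The products include the secreted cytokines IL-1 and TNF, and the sensor NLRP3, which assembles an inflammasome that lets caspase-1 cut pro-IL-1β to its active form. Metabolic enzymes belong to the same set: iNOS makes nitric oxide from arginine, arginase 1 uses up the same arginine and is a classical gene of alternative activation, and ACOD1 makes itaconate from a Krebs cycle intermediate. In obese fat, macrophages gather around dying adipocytes, and lipid-laden macrophages marked by Gpnmb and Trem2 are common there.

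The first bases upstream of the cytokine genes and Acod1 show what these genes have in common beside their values. Promoters of 8 of the 10 genes were matched in RefSeq (GRCm38.p6), and 4 of these 8 genes hold the letters TATAAA with their first base between 35 and 20 bases before the annotated start, the usual place of a TATA box, which positions the transcription machinery. The share of all 32851 promoter windows with TATAAA there was 1.84%. The 100 bases before the start are shown for these 4 genes, at chr14:103046912-103047011 on the plus strand for Acod1, and on the minus strand at chr2:129309973-129310072 for Il1a, chr2:129371140-129371239 for Il1b and chr17:35202008-35202107 for Tnf. Capitals mark TATAAA.
Acod1: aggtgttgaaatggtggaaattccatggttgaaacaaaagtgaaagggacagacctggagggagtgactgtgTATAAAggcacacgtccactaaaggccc
Il1a: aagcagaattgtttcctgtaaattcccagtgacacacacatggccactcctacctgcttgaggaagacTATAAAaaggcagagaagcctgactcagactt
Il1b: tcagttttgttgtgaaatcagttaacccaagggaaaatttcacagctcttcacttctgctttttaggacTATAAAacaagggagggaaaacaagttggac
Tnf: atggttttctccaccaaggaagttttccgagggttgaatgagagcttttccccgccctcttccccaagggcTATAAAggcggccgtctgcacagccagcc
In these 4 sequences TATAAA starts between 32 and 28 bases before the start. Within the 250 bases before each start, the NF-kB motif, searched on both strands, was found in 1 window, that of Nlrp3, against 3.90% of all windows of this length. The AP-1 motif TGANTCA, searched on both strands, was found in windows of Il1a and Il1rn, against 6.75% of all windows. The C/EBP motif TTNNGNAA, searched likewise, was found in 9 of the 11 windows and for 7 of the 8 genes, Acod1 being the exception, against 36.8% of all windows. A match is only a match of letters, and its absence here says nothing of a factor.

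The HF-PBS library held 76197757 unique molecular identifiers (UMIs, counted RNA molecules) and the HF-HHT library 73313558. After nuclei were called and filtered, 6648 HF-PBS nuclei (median 4312.5 UMIs) and 6449 HF-HHT nuclei (median 3968 UMIs) remained, and 13 barcodes were kept in both. The HF-HHT library stood apart in its makeup: it held 686 nuclei with markers of duct epithelium, 119 multiciliated and 115 erythroid nuclei, where HF-PBS held 0 of 6648, which allows a share of up to 0.0451%. The 0 for erythroid nuclei depended on the clustering: at resolution 0.6 the cluster named erythroid held 59 HF-PBS and 242 HF-HHT nuclei. Macrophage-like nuclei, in which all 10 macrophage markers were detected in both libraries, made up 3601 of the HF-PBS nuclei (54.2%) and 2225 of those of HF-HHT (34.5%). They were split into 4 states: monocyte-like nuclei named from Chil3, Clec4e and Ccr2 (318 in HF-PBS, 763 in HF-HHT), Lyve1 nuclei (122 and 132), Gpnmb nuclei (546 and 189) and the rest (2615 and 1141). The border between Gpnmb nuclei and the rest depends on the clustering: at resolution 0.6 the Gpnmb state held 1591 and 591 nuclei, and states assigned by likelihood were the same for 76.8% of macrophages. None of the 10 genes was among the 2000 features used for clustering. Levels are given as CPM, the UMIs of a gene per 1000000 UMIs of its class or state, and ratios as log2 of the HF-HHT level over the HF-PBS level. Genes with at least 20 UMIs over both libraries are called measured, and those with levels at least 1.5-fold apart are called higher or lower in HF-HHT, a matter of size with no test behind it.

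Over all macrophages, 8 of the 10 genes were higher in HF-HHT (Nos2, Acod1, Il1a, Il1b, Tnf, Nlrp3, Fpr1 and Ptgs2), 1 was lower (Il1rn) and 1 was neither (Arg1). Of all 14359 genes measured in macrophages, 25.8% were higher and 8.28% were lower. Nos2, Il1b, Ptgs2 and Il1a had only 9, 15, 12 and 17 UMIs in HF-PBS macrophages. They reached the minimum of 20 UMIs only together with their HF-HHT counts. The count of 8 is thus a description and no measure of the 10 genes as a whole. The median log2 ratio was 3.72 over the 10 genes and 0.16 over all measured genes. With TMM factors, which lowered every log2 ratio by 0.15, the split of all genes was 20.2% higher and 11.4% lower, and with size factors from the median of ratios, a shift of 0.16, it was 19.7% and 11.7%. The direction of the 9 genes counted as higher or lower was the same under both, which shifts of this size could not have changed. Neutrophil markers moved with these genes: the summed level of 12 markers was 49.8 CPM in HF-PBS macrophages and 208 CPM in HF-HHT macrophages, of which Csf3r, also known from monocytes, gave 44.7 and 178 CPM. The defining markers were near 0, with S100a9 at 0 and 3.74 CPM and Ly6g at 0 UMIs in both libraries. Without every macrophage that held a UMI of any of the 12 markers, 7 of the 10 genes were still higher in HF-HHT, but most ratios were smaller: 5.23 for Nos2 in place of 6.83, 5.82 for Acod1, 5.06 for Il1b, 3.72 for Fpr1, 3.36 for Ptgs2, 2.47 for Tnf and 1.62 for Nlrp3. Il1a fell under 20 UMIs. Of the 13524 genes measured under that setting, 24.6% were higher and 6.38% were lower.

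Among the secreted cytokines the log2 ratio was highest for Il1b, which encodes pro-IL-1β (chr2:129364570-129371139). It had 15 UMIs in HF-PBS macrophages (0.695 CPM) and 303 in HF-HHT macrophages (28.3 CPM), a log2 ratio of 5.35 (4.60 to 6.20). Most of this signal lay in few nuclei, as a UMI of Il1b was found in 0.305% of HF-PBS against 5.44% of HF-HHT macrophages, or 0.197% and 3.17% after each nucleus was thinned to 1500 UMIs, which left out 44 HF-PBS and 142 HF-HHT macrophages that were shallower. The level of Il1b was highest in the monocyte-like state in both libraries, at 6.75 CPM in HF-PBS against 76.7 CPM in HF-HHT. Of all Il1b UMIs in kept nuclei, the monocyte-like state held 78.5% in HF-HHT and 26.3% in HF-PBS.

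Il1a encodes IL-1α, which acts on the same receptor and lies beside Il1b on chromosome 2 (chr2:129299610-129309972). Counts were low: 17 UMIs in HF-PBS (0.788 CPM) against 45 in HF-HHT (4.21 CPM), a log2 ratio of 2.42 (1.58 to 3.31). In the monocyte-like state it had 0 UMIs in HF-PBS against 23 in HF-HHT. Its level there was 3.27-fold higher against a floor of 3 UMIs per library, with an interval from 2.45-fold. Unlike Il1b, it was spread over states in HF-HHT, with 6.61 CPM in the monocyte-like and 6.94 CPM in the Gpnmb state, and the intervals of these levels overlapped (4.19 to 9.92 and 2.996 to 13.7 CPM).

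Il1rn encodes the IL-1 receptor antagonist, which occupies the receptor without signaling (chr2:24336853-24351494). It was the only gene of the 10 counted as lower over all macrophages, with 1229 UMIs in HF-PBS (57.0 CPM) against 247 in HF-HHT (23.1 CPM), a log2 ratio of -1.30 (-1.51 to -1.10). Its highest level lay in the Gpnmb state, which held 68.5% of its HF-PBS UMIs and 35.7% of its HF-HHT UMIs at the resolution used. There it had 936 UMIs in HF-PBS (185 CPM) against 105 in HF-HHT (91.1 CPM), a log2 ratio of -1.02 (-1.33 to -0.73). There a UMI was found in 33.3% of the HF-PBS and 15.3% of the HF-HHT nuclei, whose median depths were 8364.5 and 5092 UMIs. In the rest of the macrophages its level was 18.2 CPM in HF-PBS against 20.3 CPM in HF-HHT, a log2 ratio of 0.16 (-0.18 to 0.49). In the monocyte-like state the ratio was -0.73 (-1.53 to 0.09), an interval that holds 0. Both levels there (16.2 and 9.77 CPM) lay below free RNA of their library. With free RNA subtracted the ratio was 3.91, so its sign there depended on the treatment of free RNA. The subtraction left almost none of the 24 HF-PBS UMIs, so the size of that ratio cannot be used. The share of free RNA taken off there, 17.8%, ranged from 5.30 to 105% over the marker lists. With the clusters of resolution 0.6 the ratio in Gpnmb nuclei was -0.70 (-0.92 to -0.47). With the HF-HHT states weighted as in HF-PBS, the log2 ratio over all macrophages was -0.68 in place of -1.30. Free RNA, the RNA of empty droplets, held Il1rn at 88.1 CPM in HF-PBS against 18.9 CPM in HF-HHT, and only the Gpnmb state lay above it in both libraries.

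Tnf encodes tumor necrosis factor (chr17:35199381-35202007), which signals through receptors on most cells. It had 149 UMIs in HF-PBS macrophages (6.90 CPM) and 673 in HF-HHT macrophages (62.9 CPM), a log2 ratio of 3.19 (2.93 to 3.45). In HF-PBS its level ranged from 3.57 CPM in Lyve1 nuclei (3 UMIs) to 10.9 CPM in Gpnmb nuclei. In HF-HHT it was 129 CPM in the monocyte-like state, 37.6 CPM in the rest, 14.7 CPM in Gpnmb and 11.2 CPM in Lyve1 nuclei. The ratio was largest in the monocyte-like state (4.26, 3.37 to 5.33) and smallest of the measured states in Gpnmb nuclei (0.44, -0.44 to 1.25), where it was counted as neither higher nor lower. In the larger Gpnmb state of resolution 0.6 its ratio was 1.77 (1.39 to 2.16).

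Nlrp3 encodes the inflammasome sensor (chr11:59541568-59566956). Its 384 UMIs in HF-PBS (17.8 CPM) against 882 in HF-HHT (82.4 CPM) gave a log2 ratio of 2.21 (2.04 to 2.39). With the HF-HHT states weighted as in HF-PBS the ratio was 1.37. Within the states it was 1.66 (1.32 to 2.01) in monocyte-like nuclei, 1.34 (1.09 to 1.60) in the rest, 1.20 (0.00 to 2.32) in Gpnmb nuclei and -0.03 (-1.15 to 1.08) in Lyve1 nuclei. In Lyve1 nuclei the levels in HF-PBS and HF-HHT were thus close, at 19.0 and 18.6 CPM, with 16 and 15 UMIs.

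Fpr1 encodes the formyl peptide receptor that guides phagocytes toward bacterial and mitochondrial peptides (chr17:17876471-17883940). It had 55 UMIs in HF-PBS macrophages (2.55 CPM) and 652 in HF-HHT macrophages (60.9 CPM), a log2 ratio of 4.58 (4.18 to 5.004). A UMI was found in 1.25% of HF-PBS against 16.4% of HF-HHT macrophages, or 0.309% and 7.59% after thinning. In HF-HHT its level was 118 CPM in the monocyte-like state and 43.5 CPM in the rest, against 6.75 and 2.61 CPM in HF-PBS, and the intervals of HF-PBS and HF-HHT did not overlap in either state. In Lyve1 nuclei it had 8 UMIs in HF-PBS against 3 in HF-HHT, too few to be measured.

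Among the enzymes, Acod1, which makes itaconate (chr14:103046977-103056573), had the most UMIs in HF-HHT macrophages. It had 123 UMIs in HF-PBS macrophages (5.70 CPM) and 4698 in HF-HHT macrophages (439 CPM), a log2 ratio of 6.27 (6.01 to 6.54). A UMI was found in 1.33% of HF-PBS against 31.7% of HF-HHT macrophages, or 0.618% and 23.5% after thinning, and in 54.4% of the HF-HHT monocyte-like nuclei. Acod1 was counted as higher in all 4 states. Only 2 of the 10 genes were measured in Lyve1 nuclei and 5 in Gpnmb nuclei, so most of the others could not have been. The level of Acod1 was 35.8 CPM in HF-PBS against 937 CPM in HF-HHT in the monocyte-like state (log2 ratio 4.71). It was 4.58 and 259 CPM in the rest (5.82), and 0.988 and 37.3 CPM in Gpnmb nuclei (5.24). In Lyve1 nuclei it had 0 UMIs in HF-PBS against 33 in HF-HHT, 11.5-fold higher against a floor of 3 UMIs (interval from 8.84-fold). It reached the minimum there through HF-HHT alone, so it had to be counted as higher. Free RNA held Acod1 at 185 CPM in HF-HHT, above its level in the HF-HHT Lyve1 and Gpnmb nuclei. Adipocytes, which should lack the gene, had it in 5.53% of 850 HF-HHT nuclei (4.79 CPM) at a median of 11521.5 UMIs, against 31.7% of macrophages at a median of 4090 UMIs. The other 9 genes were found in 0.235 to 2.35% of these HF-HHT adipocytes, and of 148 HF-PBS adipocytes (median 13092 UMIs) 3.38% held Il1rn, 1.35% held Tnf and 0 held any of the other 8.

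Nos2 encodes the inducible nitric oxide synthase iNOS (chr11:78920787-78960254) and was nearly absent from HF-PBS macrophages. It had 9 UMIs in HF-PBS macrophages (0.417 CPM) and 508 in HF-HHT macrophages (47.5 CPM), a log2 ratio of 6.83 (5.89 to 7.97), an interval that overlaps with that of Acod1. Of the HF-HHT macrophage UMIs, 426 were in the monocyte-like state (122 CPM), where HF-PBS had 0 UMIs. Against a floor of 3 UMIs the level was 60.5-fold higher, with an interval from 49.0-fold. Nos2 was a gene of few nuclei: 7.86% of the HF-HHT monocyte-like nuclei held a UMI, 1 nucleus held 55, and the 10 highest held 56.6% of its UMIs there. In the rest of the macrophages its level was 0.423 CPM in HF-PBS against 12.5 CPM in HF-HHT, a log2 ratio of 4.89 (3.69 to 6.39). Without the upper limits on UMIs and genes per nucleus, the log2 ratio over all macrophages was 5.27, below the 6.51 of Acod1 under that setting. Free RNA held Nos2 at 0.890 CPM in HF-PBS against 26.3 CPM in HF-HHT, and of the 4 HF-HHT states the monocyte-like state lay above it.

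Arg1 encodes arginase 1 (chr10:24915221-24927484). Over all macrophages it was close in both libraries, with 892 UMIs in HF-PBS (41.3 CPM) against 375 in HF-HHT (35.0 CPM), a log2 ratio of -0.24 (-0.42 to -0.06). In the monocyte-like state it was lower, with 232 UMIs in HF-PBS (157 CPM) against 164 in HF-HHT (47.1 CPM), a log2 ratio of -1.73 (-2.03 to -1.44). A UMI was found there in 11.01% of HF-PBS against 4.98% of HF-HHT nuclei, and the 10 highest nuclei held 76.7% and 74.4% of the UMIs, so few nuclei set both levels. In the rest the levels were 42.6 CPM in HF-PBS against 38.9 CPM in HF-HHT (-0.13, -0.37 to 0.10). The highest level lay in a cluster of the rest led by Prg4 and Marco, with 45 HF-PBS and 10 HF-HHT nuclei, where Arg1 was at 649 and 666 CPM and was found in 73.3% and 80.0% of nuclei. Without nuclei that held a UMI of any neutrophil marker, the log2 ratio over all macrophages was 0.58, and without the upper limits on UMIs and genes it was 0.30.

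Ptgs2 encodes cyclooxygenase-2, the inducible enzyme of prostaglandin synthesis (chr1:150100031-150108227). It had 12 UMIs in HF-PBS macrophages (0.556 CPM) and 114 in HF-HHT macrophages (10.7 CPM), a log2 ratio of 4.26 (3.40 to 5.25). In the monocyte-like state the counts were 3 and 92 UMIs (2.02 and 26.4 CPM), and in the rest 9 and 20 UMIs (0.634 and 3.799 CPM). The 10 highest nuclei held 68.5% of the HF-HHT monocyte-like UMIs. Ptgs2 was the gene whose place differed most between the libraries, as macrophages held 17.4% of its HF-PBS UMIs and 71.2% of its HF-HHT UMIs.

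**Figure D1:**
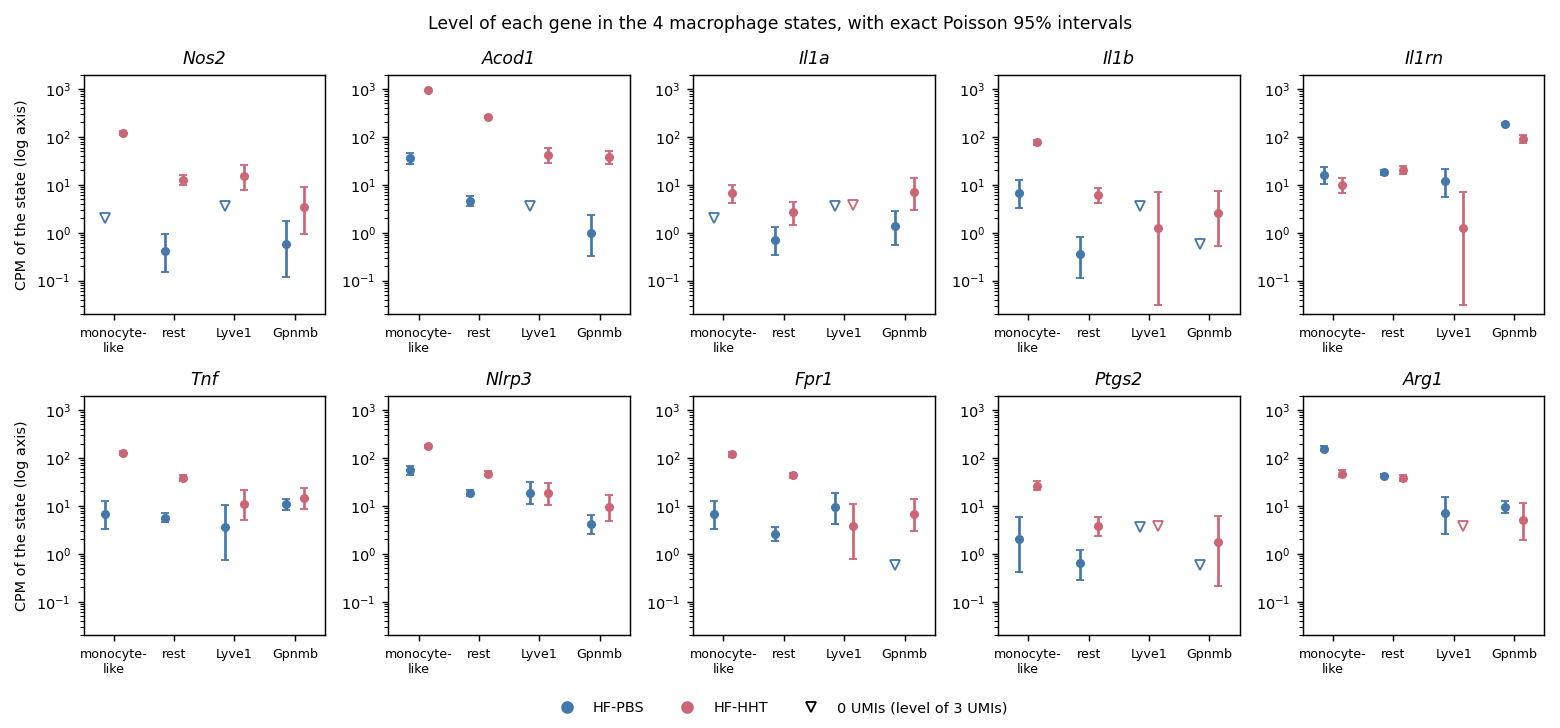
CPM of each gene (log axis) in the monocyte-like, rest, Lyve1 and Gpnmb states of HF-PBS and HF-HHT macrophages. Bars are exact Poisson 95% intervals and open triangles stand at the level of 3 UMIs where 0 were found. The HF-HHT point of Acod1 lies above the HF-PBS point in the monocyte-like state (937 against 35.8 CPM) and in the rest (259 against 4.58 CPM), and Arg1 shows the opposite order in the monocyte-like state (47.1 against 157 CPM).

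By state, the mean CPM of both libraries was highest in the monocyte-like state for 8 of the 10 genes, the exceptions being Il1rn and Il1a, which were highest in Gpnmb nuclei. In HF-PBS alone Tnf was highest in Gpnmb nuclei (10.9 against 6.75 CPM in the monocyte-like state). Fpr1 was highest there in Lyve1 nuclei (9.51 against 6.75 CPM), and Nos2 had 0 UMIs in the monocyte-like state. The share of all genes that were highest in the monocyte-like state was not computed. With clusters of resolution 0.6 or 1.5 Il1a was highest in the monocyte-like state too. Within the monocyte-like state, 8 of 10 genes were higher in HF-HHT and 2 were lower (Arg1, and Il1rn at levels below free RNA), beside 21.7% higher and 13.2% lower of 10447 genes. In the rest, 8 were higher and 0 lower, beside 23.0% and 5.96% of 13205 genes. There the HF-HHT levels of Nos2 (12.5 CPM), Il1b (6.08 CPM) and Ptgs2 (3.80 CPM) lay below free RNA of that library (26.3, 19.5 and 9.71 CPM). Those of Il1a (2.66 against 2.37 CPM) and Tnf (37.6 against 33.0 CPM) lay near it, and those of Acod1, Nlrp3 and Fpr1 above it. With free RNA subtracted, the log2 ratios of Nos2, Il1b and Ptgs2 in the rest were 4.89, 3.93 and 3.12. These rest on only 6, 5 and 9 HF-PBS UMIs. In Gpnmb nuclei 5 of the 10 genes were measured: Acod1 and Nlrp3 were higher, Il1rn and Arg1 lower and Tnf neither, beside 17.4% and 8.80% of 10501 genes. The interval of the Arg1 ratio in Gpnmb nuclei held 0 (-2.41 to 0.33). In HF-HHT Gpnmb nuclei, Acod1 (37.3 CPM), Nlrp3 (9.54 CPM), Tnf (14.7 CPM) and Arg1 (5.21 CPM) lay below free RNA. Its levels were 185, 23.5, 33.0 and 25.6 CPM, and only Il1rn lay above it there. In Lyve1 nuclei 2 genes were measured and Acod1 was higher, beside 26.9% higher and 11.7% lower of 7240 genes. Genes that pass the minimum through 1 library had to differ. Such genes were Nos2 and Il1a in the monocyte-like state and Acod1 in Lyve1 nuclei (0 UMIs in HF-PBS). The counts within states are thus no measure of the 10 genes as a whole.

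Since the monocyte-like state made up 8.83% of HF-PBS against 34.3% of HF-HHT macrophages, the ratios were also taken with the HF-HHT states weighted as in HF-PBS. The log2 ratio was then 5.44 for Nos2, 5.43 for Acod1, 3.92 for Fpr1, 3.84 for Il1b, 3.09 for Ptgs2, 2.44 for Tnf and 2.28 for Il1a. The 8 genes counted as higher thus remained more than 1.5-fold higher at an equal mix of states, Nlrp3 included at 1.37. The share of all genes past 1.5-fold at that mix was not computed, so this count has no background to be read against. Over every barcode of the library, with no calling or clustering, Nos2 was at 0.932 CPM in HF-PBS against 16.2 CPM in HF-HHT, Acod1 at 3.14 and 138 CPM, Il1rn at 72.2 and 9.41 CPM and Arg1 at 24.9 and 15.3 CPM.

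Single macrophages of HF-HHT held several of the 10 genes more often. At least 3 of the 10 genes were detected in 24 of 3601 HF-PBS macrophages (0.666%, exact interval 0.427 to 0.9901%) and in 341 of 2225 HF-HHT macrophages (15.3%, 13.9 to 16.9%). After thinning to 1500 UMIs the shares were 0.112% and 5.76%. In the monocyte-like state they were 2.20% and 32.0%, or 0.656% and 13.6% after thinning.

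**Figure D2:**
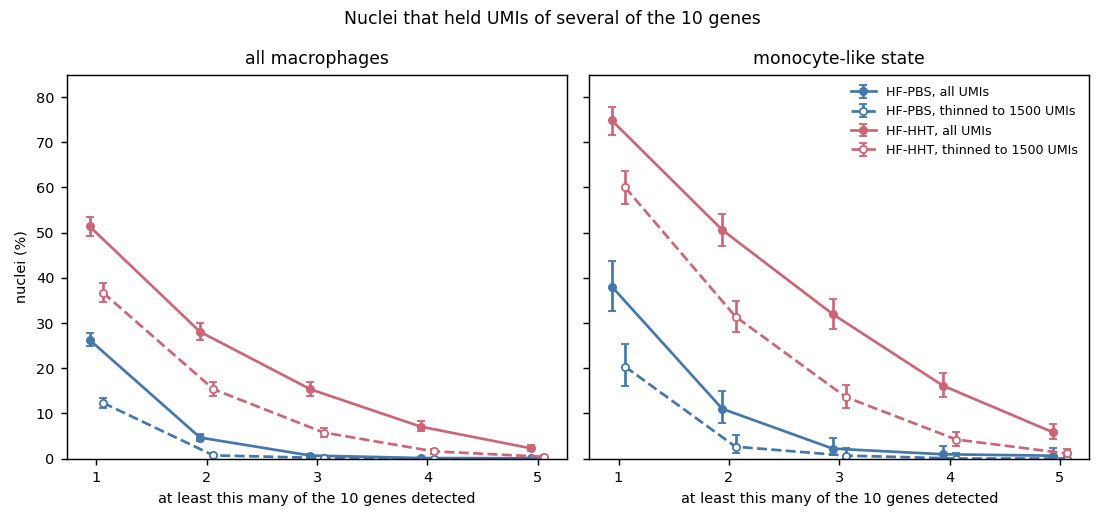
Share of nuclei (%) with UMIs of at least 1 to 5 of the 10 genes, in all macrophages and in the monocyte-like state, with exact binomial 95% intervals. Filled points use all UMIs and open points nuclei thinned to 1500 UMIs, and HF-HHT lies above HF-PBS at 3 genes in both panels (15.3% against 0.666%, and 32.0% against 2.20%).

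Nuclei with a Nos2 UMI differed from their neighbors in the other genes. In HF-HHT monocyte-like nuclei, 60 held a Nos2 UMI (median 5393 UMIs) and 703 held none (median 3882 UMIs). Levels were 2360 and 767 CPM for Acod1, 340 and 104 CPM for Tnf, 151 and 11.6 CPM for Ptgs2, and 143 and 68.8 CPM for Il1b. Acod1 was found in 54 of the 60 nuclei with Nos2. Arg1 showed the opposite order, at 5.39 CPM with 2 UMIs in the nuclei with Nos2 and 52.1 CPM with 162 UMIs in those without, and it was found in 2 of the 60. The levels of Fpr1 (135 and 116 CPM) and Il1rn (13.5 and 9.33 CPM) had overlapping intervals. Nuclei of 1 library are not replicates, and the nuclei with Nos2 were deeper, so these values describe that library.

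**Figure D3:**
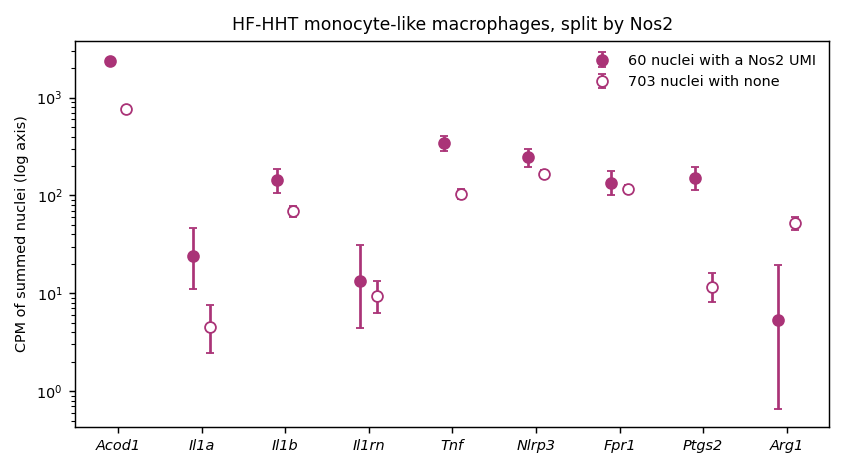
CPM (log axis) of the other 9 genes in HF-HHT monocyte-like nuclei, summed over the 60 nuclei with a Nos2 UMI (filled) and the 703 without (open), with exact Poisson 95% intervals. Ptgs2, Tnf and Acod1 are higher and Arg1 is lower in the nuclei with Nos2.

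Outside macrophages, values near or below free RNA of the same library were not read as expression here. This limit is strict, and such a value does not show that a gene was absent. The share of free RNA was estimated for macrophages only. It was 10.3% for HF-PBS macrophages (6.68 to 25.0% over the marker lists) and 9.52% for those of HF-HHT (5.87 to 33.6%). Whether other classes expressed genes at such levels was not tested. Free RNA of HF-HHT held Tnf at 33.0 CPM, Fpr1 at 27.1 CPM, Nlrp3 at 23.5 CPM and Il1b at 19.5 CPM, against 5.56, 2.34, 10.3 and 0.779 CPM in HF-PBS. Dividing nuclei lay above free RNA in HF-HHT for Acod1 (310 CPM, against 3.28 CPM in HF-PBS), Fpr1 (55.0 CPM, 0 UMIs in HF-PBS) and Nlrp3 (62.5 CPM, against 10.3 CPM). That class is named only by cell cycle genes and can hold macrophages. HF-HHT blood endothelium and dendritic cells held Acod1 at 146 and 178 CPM, not above the 185 CPM of free RNA.

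Ptgs2 and Il1b also had sources other than macrophages. In mesothelium, the lining of the fat pad, Ptgs2 had 34 UMIs in HF-PBS (27.1 CPM, 10.0% of 160 nuclei) against 10 in HF-HHT (5.19 CPM, 3.16% of 316 nuclei), a log2 ratio of -2.38 (-3.57 to -1.33), and 23.7% of 10675 genes were higher and 13.3% lower there. Its HF-PBS level lay above the 3.23 CPM of free RNA and its HF-HHT level did not. In dendritic cells Il1b had 20 UMIs in HF-PBS (36.5 CPM) against 6 in HF-HHT (15.5 CPM), a log2 ratio of -1.23 (-2.84 to 0.13), an interval that holds 0. The HF-PBS level lay above free RNA and the HF-HHT level did not. Nlrp3 lay above free RNA in dendritic cells of both libraries, at 32.9 CPM in HF-PBS (18 UMIs) against 77.6 CPM in HF-HHT (30 UMIs). The ratios of Ptgs2 in mesothelium and Il1b in dendritic cells had the opposite sign to those of the same genes in macrophages, and the difference was not tested. T cells held Tnf at 14.5 CPM in HF-PBS (12 UMIs) and 38.0 CPM in HF-HHT (19 UMIs), of which the HF-HHT level was not above free RNA (33.0 CPM).

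**Figure D4:**
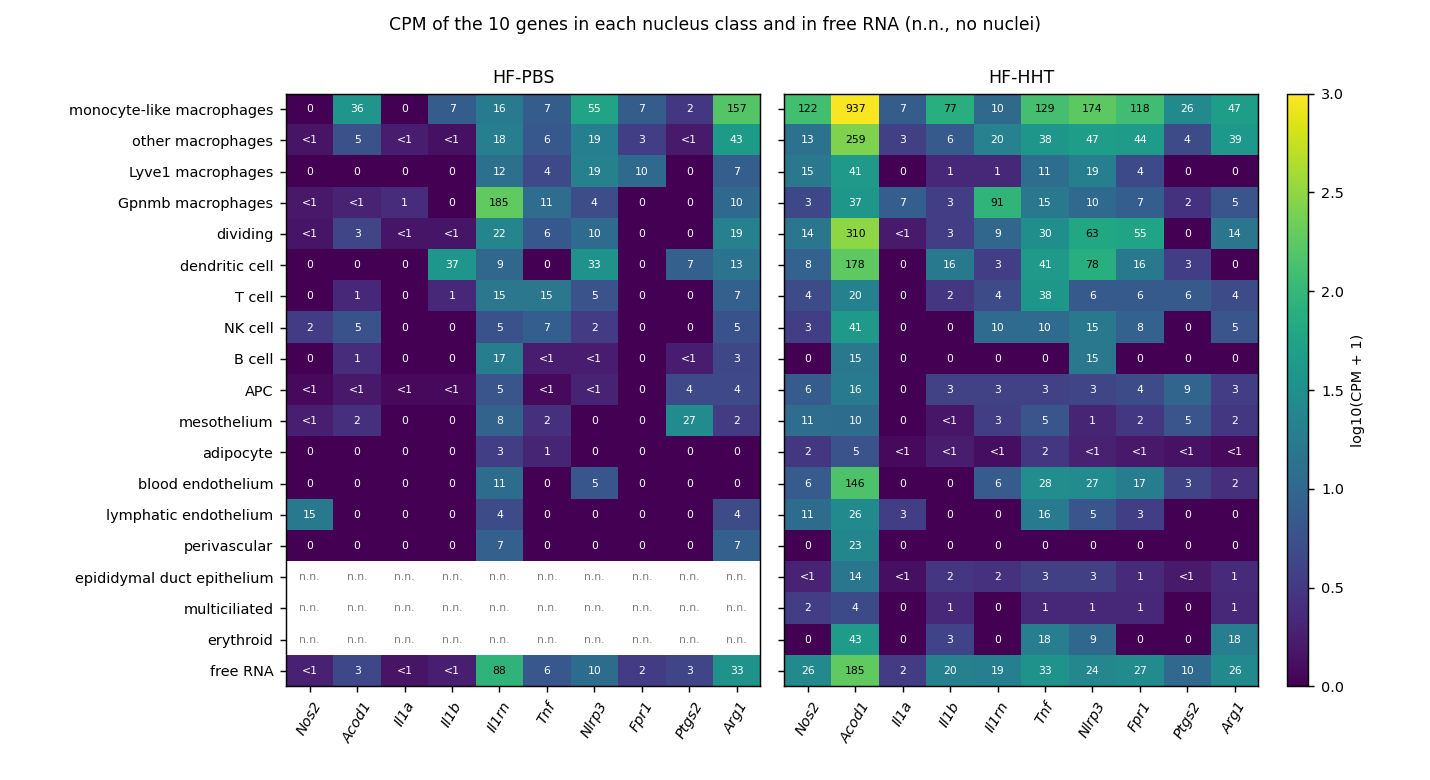
CPM of the 10 genes in each class of nuclei and in free RNA, with color on a log10(CPM + 1) scale and rounded CPM printed in each cell. Monocyte-like HF-HHT macrophages hold the highest Acod1 level (937 CPM), Gpnmb HF-PBS macrophages the highest Il1rn level (185 CPM) and HF-PBS mesothelium the highest Ptgs2 level (27.1 CPM) in the plot.

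The genes that act with the 10 were taken from 12 lists and are given by their counts in macrophages, to be read against the 25.8% higher and 8.28% lower of all measured genes and their median of 0.16. No list was tested. All-macrophage counts for pattern recognition receptors, IL-1 signaling, the itaconate and NRF2 response, suppressors of inflammation and alternative activation lie near those shares. They are given as values only. Of the NF-kB subunits and feedback genes, 13 of 20 were higher in HF-HHT and 0 lower, at a median of 0.92 on the log2 scale, and the highest were Nfkbie (2.17), an inhibitor of NF-kB, and the NF-kB partners Bcl3 (1.73) and Relb (1.64). Of other genes of classical activation, 13 of 17 were higher and 0 lower (median 1.43), among them the interferon response factor Irf1 (26.7 CPM in HF-PBS against 207 CPM in HF-HHT, log2 ratio 2.96) and Sod2 (4.01-fold), a mitochondrial antioxidant enzyme. The TNF axis had 8 of 12 higher and 0 lower, among them Traf1 (2.28), an adaptor of TNF receptors, and the receptor Tnfrsf1a (1.16). Of pattern recognition receptors, 6 of 16 were higher and 2 lower. Clec4e (4.05), which senses mycobacterial glycolipids and dying cells, and the bacterial lipoprotein receptor Tlr2 (2.31) were higher. The scavenger receptors Cd36 (-0.88) and Marco (-0.79) were lower. Clec4e is also a marker used to name the monocyte-like state, within which its ratio was 2.84.

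Partners of Nlrp3 and of IL-1 signaling were counted in the same way. Of 16 inflammasome partners 7 were higher and 0 lower (median 0.47), including Mefv (3.90), which encodes the sensor pyrin, Gsdmd (1.16), the pore former of pyroptosis, and Casp1 (1.12). Of 15 genes of IL-1 receptors and signaling 6 were higher and 2 lower: Il18 (1.37), another substrate of caspase-1, was higher together with Irak3 (1.57), a brake on the pathway, and the receptor Il1r1 was lower (-1.06).

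Of the receptors around Fpr1, Fpr3 had a higher and Fpr2 a lower ratio than Fpr1 itself. Of 7 measured formyl peptide receptors and chemotactic partners 4 were higher and 1 was lower: Fpr3 was at 2.27 CPM in HF-PBS against 123 CPM in HF-HHT (log2 ratio 5.75), Fpr2 had a log2 ratio of 3.67, and Anxa1, which encodes an anti-inflammatory ligand of these receptors, had -0.99. Fpr1, Fpr2 and Fpr3 are related genes, and the sources used here do not say how reads shared among them were treated.

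Around Nos2 and Arg1, 7 of 13 genes of arginine and nitric oxide metabolism were higher and 0 lower, led by Ass1 (3.12), which rebuilds arginine from citrulline, and Arg2 (2.74), the mitochondrial arginase. Around Ptgs2, 9 of 19 genes of prostaglandin and leukotriene synthesis were higher and 1 lower, led by Pla2g4a (1.31), which frees arachidonic acid. Within the monocyte-like state, 4 of 16 genes of this list were higher and 6 lower (median -0.35), beside 21.7% and 13.2% of all genes there. Of the arginine and nitric oxide list, 2 of 12 were higher and 0 lower in that state (median 0.47). Around Acod1, 2 of 14 genes of the itaconate and NRF2 response were higher and 1 lower, so this list (median 0.25) lay close to the median of all genes. Slc7a11 (0.77), the cystine transporter, and Nfe2l2 (0.67), which encodes NRF2, were higher and the stress factor Atf3 was lower (-0.71).

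Genes of alternative activation were counted over all macrophages and within the monocyte-like state. Over all macrophages 7 of 18 were higher and 3 lower. Among the higher were Chil3 (8.58-fold), a marker used to name the monocyte-like state, and Mgl2 (2.45-fold). Among the lower were Pparg (-0.77) and Mrc1 (-0.66), the mannose receptor. Within the monocyte-like state 1 of 12 was higher and 8 were lower (median -1.45), beside 21.7% and 13.2% of all genes there, and the difference between the states was not tested. Of 16 suppressors of inflammation 5 were higher and 3 lower over all macrophages: the cytokine signaling inhibitors Socs3 (3.93) and Socs1 (3.76) were higher, and the glucocorticoid-induced genes Dusp1 (-1.95) and Tsc22d3 (-1.04) were lower.

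Across 29 profiles (classes and states of at least 50 nuclei, by library), the genes whose log2(CPM + 1) was most like that of each of the 10 were found by Pearson correlation, given as a description because profiles of 1 library share depth and free RNA. For Acod1 they were Clec4e (r = 0.94), Fpr2 (0.90) and Pilra (0.87), and for Fpr1 they were Fpr3 (0.92), Slfn4 (0.88) and Clec4e (0.85). Clec4e is a marker used to name the monocyte-like state. For Nos2 they were Iigp1 (0.78), Wars (0.78) and Gbp2 (0.75), genes known to be induced by interferon gamma. For Nlrp3 they were Fcer1g (0.93), Clec4a1 (0.91) and Clec4a3 (0.91), for Tnf Pilra (0.85), Acod1 (0.84) and Aif1 (0.81), and for Il1b Htr7 (0.86), Gpr141 (0.84) and Mefv (0.81). Ptgs2 was most like Ifi205 (0.77), Il6 (0.76) and Ifi211 (0.69), and Il1a, with few UMIs, was most like Esd (0.69), Prdx1 (0.69) and Abcc5 (0.69). Il1rn was most like Arih1 (0.90), Samd8 (0.88) and Ankdd1a (0.87), and Arg1 most like F10 (0.81), Naip1 (0.77) and Dpep3 (0.76). Among the 10 genes themselves r was highest between Acod1 and Fpr1 (0.84) and lowest between Il1rn and Nos2 (-0.18).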

How the data were processed

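The study made 1 library of nuclei for each of 2 conditions, from frozen epididymal WAT pooled over 3 mice. The deposited values are raw UMI counts per gene and barcode, which the authors made with Cell Ranger on mm10 and left unscaled. The labels and the methods name version 5.0.0, and the file header and another of the study's documents name other versions. Whether introns were included: not given in the sources used here. Cell Ranger's default calling was rebuilt (3000 nuclei expected, then barcodes of 500 UMIs or more tested against free RNA, the barcodes ranked 45000 to 90000, using 10000 simulations and a false discovery rate of 0.01). Scrublet in scanpy 1.11.5 took out the highest 6.18% (HF-PBS) and 6.09% (HF-HHT) as likely doublets. The study's own limits came next: over 400 genes, below the 95th percentile for UMIs and for genes, and under 0.5% mitochondrial UMIs. Seurat 5.3.0 (R 4.3.3) integrated both libraries and clustered them at resolutions 0.15 (14 clusters) and 1.0 (26 clusters, for states). Clusters were named from 20 marker lists, with the 10 genes and the 12 gene lists left out of the features.

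UMIs were summed per class and library (Python 3.11.15, numpy 2.4.6, pandas 2.3.3, scipy 1.17.1). Intervals are exact Poisson (counts), exact Clopper-Pearson (shares) and exact binomial (ratios). Counts of 0 were set at a floor of 3 UMIs per library for ratios. Scaling alternatives used TMM factors of edgeR 4.0.16 and size factors of DESeq2 1.42.0. All 10 genes are given, and of each list up to 3 genes per direction with the most extreme ratios could be named, if 1.5-fold different with 50 UMIs in one library and 3 in the other. One gene that this rule would name is not reported here. The 10 genes, the lists and the markers were chosen with earlier results of these data known. The computation of ratios and intervals was checked on simulated counts with known folds. Coordinates come from GENCODE vM21 on GRCm38, and promoters from RefSeq (GRCm38.p6).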

Additional observations from a re-analysis of the deposited data

Results flagged for a closer look

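Ptgs2 in mesothelium and Il1b in dendritic cells had ratios of the opposite sign to macrophages. The log2 ratio of HF-HHT over HF-PBS was -2.38 for Ptgs2 in mesothelium (34 and 10 UMIs) and 4.26 in macrophages, and -1.23 for Il1b in dendritic cells (20 and 6 UMIs) and 5.35 in macrophages. Neither HF-HHT level lay above free RNA of that library. With 1 library per condition the difference between classes was not tested.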

How the results depend on the processing

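The counts of genes higher, lower and highest in the monocyte-like state kept within 1.5 times their value in all 42 recomputed counts under 14 alternatives, of which 3 (without the cluster led by Prg4 and Marco, without nuclei holding a neutrophil marker, without barcodes kept in both libraries) were chosen after seeing the data. Of 140 recomputed log2 ratios, 120 stayed within the interval of the value reported and 20 left it, and no called ratio changed sign. Ratios over all macrophages do not depend on the states, and all 10 genes passed the minimum of counts. The settings with states at resolution 0.6 or 1.5 and with no minimum thus had to return the same ratios and counts higher and lower. They are no check of these values. The log2 ratio ranged from 5.23 to 7.91 for Nos2, 5.78 to 6.51 for Acod1, 1.45 to 3.17 for Il1a, 4.59 to 5.70 for Il1b, -2.34 to -0.98 for Il1rn, 2.47 to 3.23 for Tnf, 1.62 to 2.43 for Nlrp3, 3.72 to 4.89 for Fpr1, 3.36 to 5.63 for Ptgs2 and -0.45 to 0.58 for Arg1, whose sign thus depended on the setting. Without nuclei holding a neutrophil marker, 2883 HF-PBS and 1247 HF-HHT macrophages were left. Of the 10 genes 7 were then higher, as Il1a fell under 20 UMIs, beside 24.6% higher and 6.38% lower of 13524 genes. The ratios of Nos2, Tnf, Nlrp3, Fpr1 and Ptgs2 in that setting were the lowest of their ranges. No paired analysis was possible because each group has 1 library, and for the same reason no replicate could be left out. Low counts (9 Nos2 and 12 Ptgs2 UMIs in HF-PBS macrophages) limit the precision of the largest ratios.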
